A study of Homo sapiens with 76 samples.

Results

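The genes described here are the 9 factors that supply histones to replicating DNA or restore chromatin and DNA methylation behind the replication fork: SLBP, NASP, ASF1A, ASF1B, CHAF1A, CHAF1B, UHRF1, DNMT1 and HELLS. They were listed by name, with earlier results of these data known, and all 9 were found among the 17513 gene rows of the count table. The table holds 76 single cells of HEK293, an established line from human embryonic kidney transformed with adenovirus DNA, grown in serum-containing medium with no treatment. Each cell was captured in a microfluidic chamber and its polyadenylated RNA was primed with oligo-dT, tagged with a unique molecular identifier (UMI) by template switching at the 5' end and sequenced from that end. A UMI therefore stands for 1 captured cDNA molecule, whatever the number of its PCR copies. All cells belong to 1 group and 1 run, the labels name no separate cultures, and cells are not replicates, so no test was made. Every SD is the spread over the 76 cells, and every interval covers counting error only.

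In S phase a cell copies its DNA and has to pack the new strands into nucleosomes. SLBP binds the stem-loop at the end of replication-dependent histone mRNAs, which lack a poly(A) tail in most cases, and takes part in their processing, export and translation. NASP holds a soluble reserve of histones H3 and H4, ASF1A and ASF1B hand H3 and H4 to the chromatin assembly factor CAF-1, and CHAF1A and CHAF1B are the large subunits of CAF-1, which PCNA brings to new DNA. UHRF1 binds hemimethylated CpG sites and recruits the maintenance methyltransferase DNMT1, and HELLS is a nucleosome remodeller needed for full DNA methylation. The mRNAs of most of these factors are known to be controlled by E2F factors and to rise toward S phase, while HIST1H4C, a gene for histone H4, is one of the replication-dependent histone genes.

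The sequence that SLBP reads is shown first, since HIST1H4C was measured through a poly(A) method. The lines below are DNA letters of 3 replication-dependent histone genes, the most abundant here with the stem-loop in a single-exon transcript, from the GENCODE 29 annotation of GRCh38. Capitals mark the stem-loop, with 5 flanking bases on each side. They lie at chr1:228457364-228457389 on the minus strand (HIST3H2A), chr6:26204996-26205021 on the plus strand (HIST1H4E) and chr6:27808642-27808667 on the plus strand (HIST1H2AI), each in the transcribed region after the coding sequence.
HIST3H2A: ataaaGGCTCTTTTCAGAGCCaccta
HIST1H4E: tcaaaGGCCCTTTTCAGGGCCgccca
HIST1H2AI: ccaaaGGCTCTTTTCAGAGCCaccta
Stem-loop letters of this kind were present in an annotated transcript of 18 of the 36 listed histone genes with a UMI. Models of other genes can stop before or within these letters. Those of HIST1H2BK (381 bases) and HIST2H2AC (390 bases) end at a stop codon, and that of HIST1H1E ends inside the stem-loop letters. The count thus describes the models, not which genes have a stem-loop. The annotated HIST1H4C transcript (chr6:26103876-26104310, plus strand, 435 bases, 1 exon) did not contain the stem-loop letters, which says only that they are not in that model. Its last 25 bases, at chr6:26104286-26104310, are rich in A, and the line below gives them with no part in capitals.
HIST1H4C: acttcaaaaaacaaaaacaaaaaaa
HIST1H4C had up to 18 A within 20 bases, and 2 of the 36 genes reached 15 or more. Whether oligo-dT can start on this stretch was not tested, so the level of HIST1H4C below is the level this assay captured.

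Upstream sequences are shown for 4 members because ASF1A and ASF1B gave other correlations than most members, and HELLS and UHRF1 hold the letters of an E2F site. Each line gives the 150 bases before the RefSeq transcription start on GRCh38.p14, read along the gene's own strand: HELLS at chr10:94545638-94545787 (plus), UHRF1 at chr19:4909351-4909500 (plus, the first of 3 starts), ASF1B at chr19:14136590-14136739 (minus) and ASF1A at chr6:118894002-118894151 (plus). Capitals mark a match to an E2F motif (TTTCCCGC, TTTCGCGC, TTTGCCGC or TTTGGCGC), to CCAAT or to the cell-cycle homology region TTTGAA, on either strand.
HELLS: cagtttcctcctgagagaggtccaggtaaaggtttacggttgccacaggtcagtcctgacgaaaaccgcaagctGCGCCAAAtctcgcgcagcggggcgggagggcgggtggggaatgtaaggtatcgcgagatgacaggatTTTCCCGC
UHRF1: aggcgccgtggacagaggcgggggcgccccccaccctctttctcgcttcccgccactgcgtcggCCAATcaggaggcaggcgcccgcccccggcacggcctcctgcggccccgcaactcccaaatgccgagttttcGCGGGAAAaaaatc
ASF1B: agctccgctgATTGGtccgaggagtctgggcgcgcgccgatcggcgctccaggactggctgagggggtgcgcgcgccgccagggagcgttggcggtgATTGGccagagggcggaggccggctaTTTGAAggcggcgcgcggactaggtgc
ASF1A: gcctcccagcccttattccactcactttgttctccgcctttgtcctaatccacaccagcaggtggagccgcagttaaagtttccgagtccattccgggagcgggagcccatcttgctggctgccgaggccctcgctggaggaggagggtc
E2F letters occurred in the 300-base promoter windows (250 before and 50 after the start) of 3 of the 9 members, UHRF1, DNMT1 and HELLS, against 3.99% of 27305 genes. CCAAT occurred in 6 of the 9, against 39.7% of genes. TTTGAA occurred in ASF1B alone among the 9, against 18.2% of genes. In ASF1B it began 27 bases before the start, and inverted CCAAT letters began 53 and 140 bases before it. In ASF1A the 1 CCAAT match began 15 bases inside the transcript. These are matches of letters, not sites shown to be used, and the motifs were chosen after the values below had been seen.

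A cell gave 7305 to 43392 UMIs of gene rows (median 20966) and 1390 to 3132 UMIs of spike-in RNA, and 2015 to 6016 genes. Genes typical of cultured HEK293 were present, from UCHL1 and VIM with a UMI in 70 cells each to KRT8 in 19. Markers of other cell types gave 16 UMIs for blood, 18 for fibroblast and muscle and 1 for liver over all cells. The 9 genes together gave 1423 UMIs, of which NASP, HELLS and DNMT1 made up 65.6%. Per cell their sum was 18.7 ± 13.7 UMIs, with a median of 16.5. The lowest cell had 0 and was also the shallowest, and the highest had 64. As a share of the cell's UMIs this was 0.0795% ± 0.0409, from 0 to 0.179%. Of the 76 cells, 2 had a UMI of all 9 genes, 11 had 8 of them and 1 had none.

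SLBP, the histone mRNA binding protein, gave 0 to 12 UMIs per cell with a median of 1 and a mean of 2.13 ± 2.61. It was seen in 50 of 76 cells, or 65.8% (95% exact Clopper-Pearson interval 54% to 76.3%). Most positive cells held more than a single molecule, since 37 cells had at least 2 UMIs. On the scale of UMIs per 10000 of the cell total, SLBP stood at 0.862 ± 0.912.

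NASP, the reserve chaperone for H3 and H4, was the most abundant of the 9 at 5.82 ± 4.82 UMIs per cell, with a median of 5 and a maximum of 22. It was seen in 70 cells, 92.1% (83.6% to 97%), and its mean ranked 534 among all genes. ASF1B, the form of the ASF1 chaperone known to follow proliferation, gave 0 to 10 UMIs with a median of 1 and a mean of 1.25 ± 1.79, in 40 cells (52.6%, 40.8% to 64.2%). ASF1A, its paralog, known to be made also in resting cells, gave 0 to 6 UMIs with a median of 1 and a mean of 0.987 ± 1.17, in 44 cells (57.9%, 46% to 69.1%). The sums of the paralogs, 95 UMIs of ASF1B (76.9 to 116 by the exact Poisson interval) and 75 of ASF1A (59 to 94), overlapped within counting error, and ASF1B exceeded ASF1A in 27 cells, fell below it in 26 and equalled it in 23. At least 1 of the paralogs was seen in 60 cells, ASF1A without ASF1B in 20 and ASF1B without ASF1A in 16.

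CHAF1A, the large CAF-1 subunit that binds PCNA, gave 0 to 7 UMIs per cell with a median of 0 and a mean of 0.934 ± 1.53, in 32 cells (42.1%). CHAF1B, the middle subunit, gave 0 to 4 UMIs with a median of 0 and a mean of 0.711 ± 1.09, in 30 cells (39.5%). The subunits work in 1 complex. Both were seen in 15 cells, CHAF1A alone in 17, CHAF1B alone in 15 and neither in 29. At means under 1 UMI an absence in a cell is not distinguishable from a missed molecule. RBBP4, the small subunit that CAF-1 shares with other complexes, averaged 5.11 ± 3.63 UMIs and was seen in 72 cells.

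UHRF1, which reads hemimethylated DNA, was the least abundant member at 0.434 ± 0.699 UMIs per cell, with a median of 0 and a maximum of 3, in 25 cells (32.9%, 22.5% to 44.6%). It alone of the 9 fell under the mean of 0.5 UMI used to compare genes, so 8 of the 9 passed that filter. DNMT1, the methyltransferase it recruits, gave 0 to 15 UMIs with a median of 1 and a mean of 2.71 ± 3.15, in 54 cells (71.1%). Of the 25 cells with a UMI of UHRF1, 20 also had DNMT1. HELLS, the remodeller, gave 0 to 13 UMIs with a median of 3 and a mean of 3.75 ± 3.39, in 64 cells (84.2%).

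In order of mean the members ran NASP, HELLS, DNMT1, SLBP, ASF1B, ASF1A, CHAF1A, CHAF1B and UHRF1. These are counts of 5' ends, not divided by length, and how transcript length affects capture was not tested. The counting intervals of the sums overlapped between DNMT1 (206 UMIs) and SLBP (162 UMIs) and between each pair of neighbours from ASF1B down to UHRF1. They did not overlap between NASP (442 UMIs) and HELLS (285 UMIs), HELLS and DNMT1, or SLBP and ASF1B. Cell by cell the order was looser, since NASP exceeded HELLS in 51 cells and HELLS exceeded NASP in 19. Detection also depends on depth. With 71 cells thinned to 10940 UMIs each, NASP was seen in 85.9% of cells, SLBP in 53.5%, UHRF1 in 14.1%, CHAF1A in 21.1% and CHAF1B in 28.2%. ASF1B was then seen in 39.4% and ASF1A in 31%. The order of CHAF1A and CHAF1B by detection turned round in this single random draw, and so did that of the ASF1 paralogs. The counts were small, with CHAF1A in 15 and CHAF1B in 20 of 71 cells, and ASF1A in 22 and ASF1B in 28. Whether depth made the order turn was not tested.

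**Figure D1:**
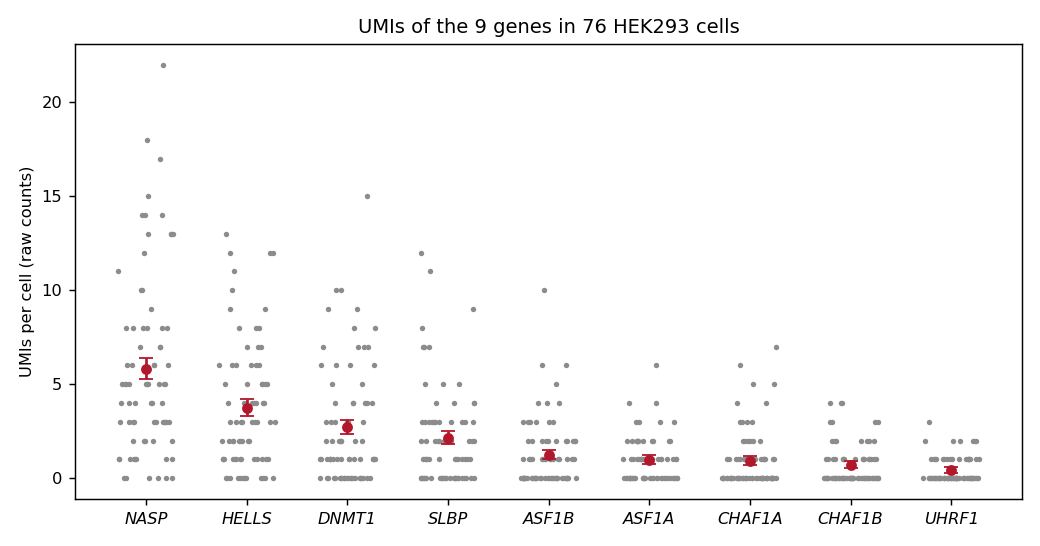
UMIs per cell (vertical axis, raw counts) of the 9 genes, ordered by mean. Grey points are the 76 cells, red points the means and bars the 95% exact Poisson intervals of the means, from 5.82 for NASP to 0.434 for UHRF1; zeros are common for every gene below HELLS.

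HIST1H4C stood far above all of them, at 150.9 ± 120 UMIs per cell with a median of 138, and its mean ranked 9 among all genes. It was seen in all 76 cells, from 6 to 497 UMIs. The next replication-dependent histone gene, HIST1H2BK, averaged 1.24 UMIs. Of the 65 such genes listed, 36 had a UMI and 29 had none or were not analysed here. Reads of near-identical histone genes may have been divided by the counting, which is not described in the sources used here.

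The spread of each gene between cells was set against the count expected from each cell's total of gene UMIs. The Pearson dispersion, the squared deviation divided by the expected count, is near 1 where a gene varies by counting alone. It was 2.37 for DNMT1, 2.36 for HELLS, 2.29 for NASP, 2.03 for ASF1B and 1.94 for SLBP. The others lay between 1.31 for UHRF1 and 1.58 for CHAF1A. Spike-in RNAs, added in equal amount to each chamber, had dispersions of 0.93 to 2.57 (median 1.59, 44 RNAs). Their expected counts came from each cell's total of spike-in UMIs, not of gene UMIs. None of the 9 genes lay above every spike-in, against 7.51% of 4649 genes. The spike-in at 2.57 has a low mean, and with a minimum mean of 1 UMI the highest spike-in fell below DNMT1, HELLS and NASP, so that 3 of the 5 members tested lay above, against 21.6% of 2810 genes at that setting. DNMT1 was more dispersed than 91.8% of genes of like mean and HELLS than 86.5%, while ASF1A was more dispersed than 30.6%. HIST1H4C reached 90.3.

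**Figure D2:**
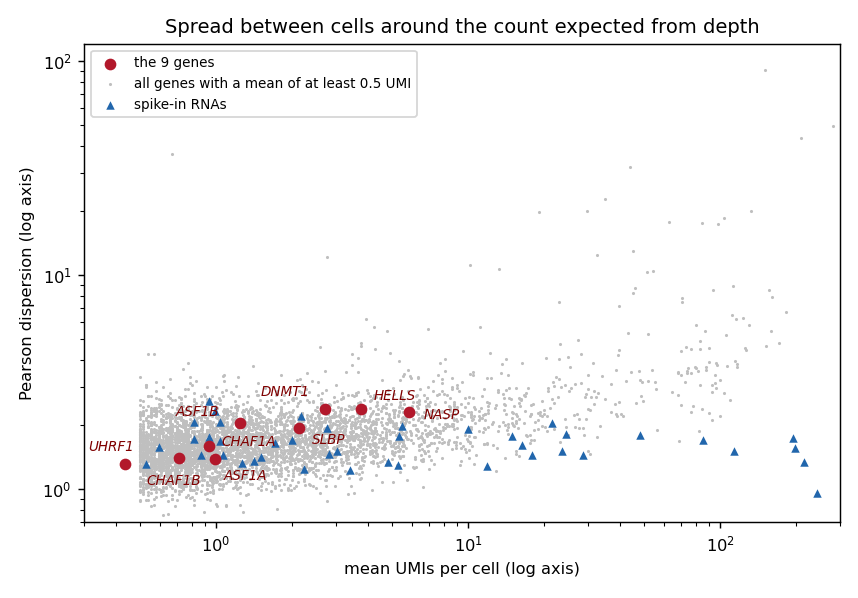
Pearson dispersion (vertical log axis) against mean UMIs per cell (horizontal log axis) for all genes with a mean of at least 0.5 UMI (grey), spike-in RNAs (blue triangles) and the 9 genes (red). Expected counts come from the cell's gene UMIs for genes and from its spike-in UMIs for spike-in RNAs. DNMT1 at 2.37 and HELLS at 2.36 sit in the upper part of the genes of like mean, ASF1A, CHAF1B and UHRF1 in the lower part.

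The correlations of the members with HIST1H4C from cell to cell were weak. Rank correlations (Spearman rho) were taken over the 76 cells between shares of the cell total; the points share 1 run and the same total in both shares, so they are given as descriptions without a p-value. The correlation with HIST1H4C ranged from -0.25 for UHRF1 to 0.23 for ASF1A, with SLBP at -0.19 and NASP at -0.12. None of the 9 reached 0.3, against 0.366% of all genes, and none fell to -0.3, against 1.64%. The median of the 9 was -0.165, against -0.0405 over all genes, and 2 of the 9, ASF1A and ASF1B, were above 0. At these counts a rho of this size is weak. For the summed share of the 9 it was -0.22 (Pearson r -0.22).

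Raw counts of HIST1H4C were also set beside the presence of each member. In the 50 cells with a UMI of SLBP, HIST1H4C ran from 12 to 497 UMIs with a median of 133.5. In the 26 cells without SLBP it ran from 6 to 460 with a median of 138. The cells with SLBP were deeper, with a median total of 23419 UMIs against 15694.5 in those without. For ASF1A and UHRF1 the medians of HIST1H4C lay further apart, in opposite directions. HIST1H4C had a median of 168 UMIs in the 44 cells with ASF1A (median total 23830.5) and of 44 in the 32 without (median total 18093.5). It had a median of 77 UMIs in the 25 cells with UHRF1 (median total 20275) and of 191 in the 51 without (median total 21104). The ranges overlapped for both genes, from 14 to 497 UMIs with ASF1A and 6 to 366 without, and from 12 to 321 with UHRF1 and 6 to 497 without. Of the 6 cells with the highest HIST1H4C share, 4 had no UMI of SLBP. The cell with the most UMIs of the 9 genes (64) had 321 UMIs of HIST1H4C, and another with all 9 genes and 57 UMIs had 28. HIST1H4C itself varied with the summed share of the other replication-dependent histones (rho 0.67). Of 5 such genes averaging at least 0.5 UMI, 3 reached 0.3 with HIST1H4C, against 0.366% of all genes. They were HIST1H1E (0.56), HIST2H2AC (0.37) and HIST1H1C (0.32). HIST1H2AM was at 0.25, and HIST1H2BK, the most abundant of the 5, at -0.19. Below that mean, HIST1H3B (0.47, mean 0.368 UMI) and HIST1H2AC (0.37, mean 0.276 UMI) also passed 0.3. None of the 9 members reached 0.3 with the summed share of these other histones, against 0.215% of all genes. ASF1A had a rho of 0.24 and ASF1B of 0.17, and the other 7 members lay between -0.13 and 0.02.

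Against the replication genes the members were higher. The replication share sums 55 genes for origin licensing, the fork and nucleotide supply, without the 9. The rank correlation was 0.43 for NASP (r 0.41), 0.43 for SLBP (r 0.40), 0.38 for CHAF1A (r 0.43) and 0.37 for DNMT1 (r 0.28). These 4 of 9 members reached 0.3, against 3.42% of all genes. With thinned cells 3 did, as CHAF1A came to 0.172, against 2.16% of genes other than the members and replication genes. With totals that leave out ribosomal protein, mitochondrial and the 10 most abundant genes 3 did, as DNMT1 came to 0.28, against 1.35% of those genes. CHAF1B was at 0.26, HELLS and UHRF1 at 0.22, and ASF1A and ASF1B at 0.02 each. The median of the 9 was 0.262, against 0.0567 over all genes. Of the 4649 genes, 18 had a higher rho than NASP and 21 than SLBP.

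The summed share of the 9 had a rho of 0.51 with the replication share (r 0.53). Without the 2 cells farthest from the median replication share it was 0.48 (r 0.50). By group, 4 members reached 0.3 with the licensing genes (2.56% of all genes), with DNMT1 highest at 0.39 and NASP at 0.38. With the fork genes 4 did (2.97%), among them NASP at 0.41, SLBP at 0.37 and CHAF1B at 0.32. With the nucleotide supply genes 3 did (2.58%), DNMT1, SLBP and CHAF1B. SLBP alone of the 9 passed in all 3 groups. The replication share and HIST1H4C themselves had a rho of -0.12.

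**Figure D3:**
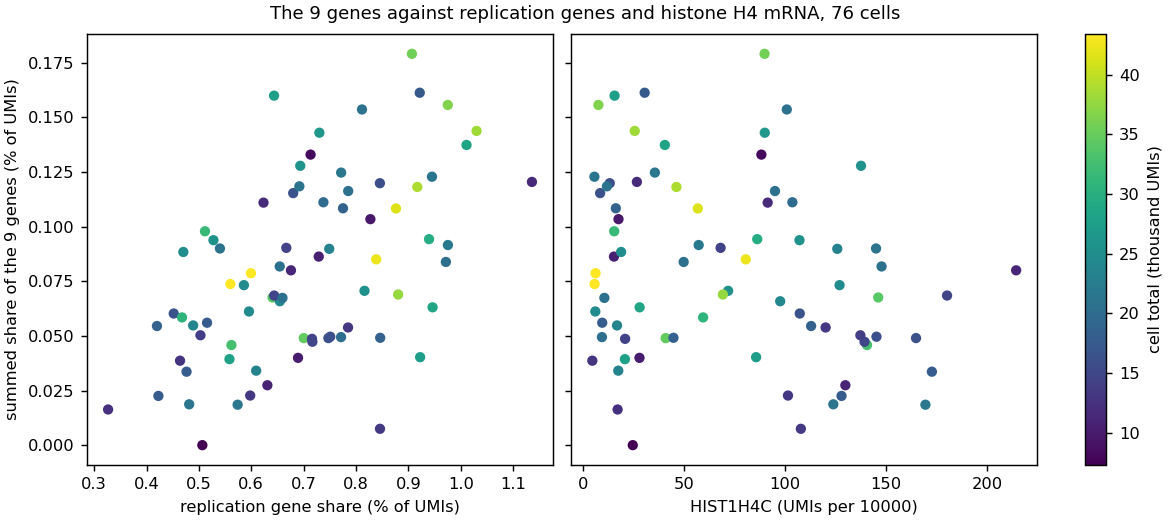
Summed share of the 9 genes (vertical axis, percent of the cell's UMIs) against the replication gene share (left, percent of UMIs) and HIST1H4C (right, UMIs per 10000), 1 point per cell, coloured by the cell total. The left cloud rises (rho 0.51) and the right cloud does not (rho -0.22).

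Another measure moved with the members. Against the share of 86 cytosolic ribosomal protein genes the summed share of the 9 had a rho of -0.60 (r -0.61), HELLS of -0.45 and NASP of -0.42. Of the 9, 6 were at or below -0.3, against 10.8% of all genes, and ASF1A alone was above 0, at 0.13. The median of the 9 was -0.333, against -0.112 over all genes. The replication share had a rho of -0.44 with the ribosomal protein share, and HIST1H4C one of 0.31. With the ribosomal protein share held fixed in ranks, the sum of the 9 had a rho of 0.35 with the replication share and 2 members in place of 4 reached 0.3, while the share of those other genes that did so was 1.15% in place of 2.98%. The rho of the sum with HIST1H4C was then -0.05 in place of -0.22. With the cell total the members' rho ran from -0.16 (UHRF1) to 0.36 (CHAF1A). The part of the ribosomal protein share or of depth in the correlations was not tested beyond these values.

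**Figure D4:**
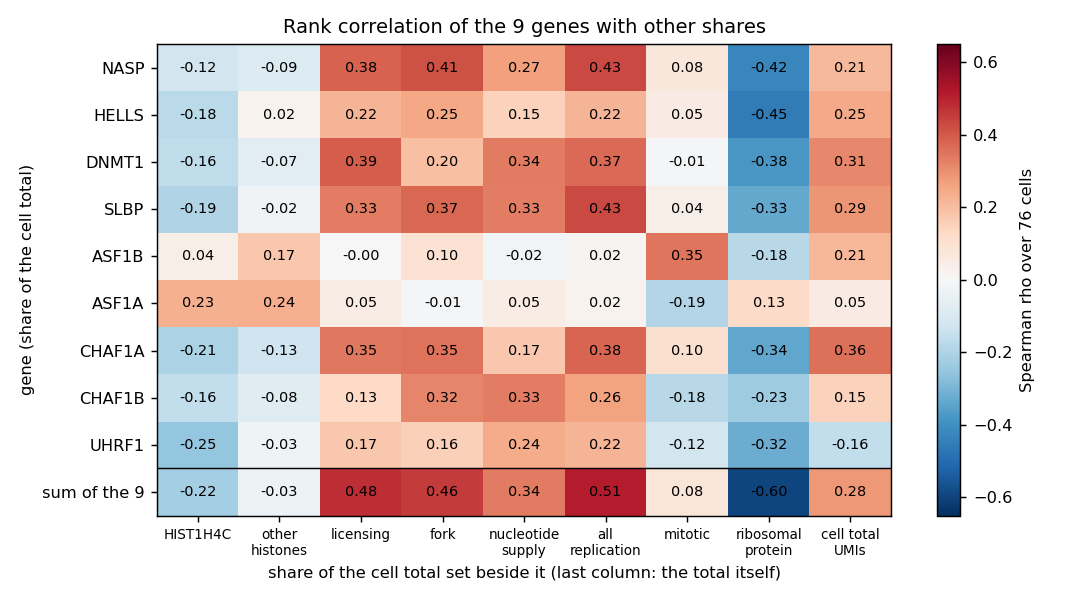
Spearman rho over 76 cells between each of the 9 genes, or their sum (rows), and the share named in each column; red is positive and blue negative. In the column of all replication genes every row is above 0, with ASF1A and ASF1B lowest at 0.02, the ribosomal protein column is blue for all but ASF1A, and the HIST1H4C column stays between -0.25 and 0.23.

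With the summed share of 35 mitotic genes ASF1B had a rho of 0.35 (r 0.33), the highest of the 9. ASF1A at -0.19 and CHAF1B at -0.18 were the lowest, and which of the 9 came last changed with the settings. With spike-in UMIs as the scale, ASF1A (0.048) and CHAF1B (0.043) were above 0. ASF1B was thus the 1 member of 9 to reach 0.3, against 2.6% of all genes, and the median of the 9 was 0.0393, close to 0.0408 over all genes. Without the 2 cells farthest from the median mitotic share ASF1B was at 0.30 (r 0.20), and it came under 0.3 without the 5 shallowest cells (0.288), with cells thinned to 1 depth (0.242) or with the cell total held fixed (0.299). The paralogs had a rho of -0.14 with each other, with both seen in 24 cells and neither in 16. ASF1B is known as a gene of proliferating cells and ASF1A as the form that also serves replication-independent assembly.

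**Figure D5:**
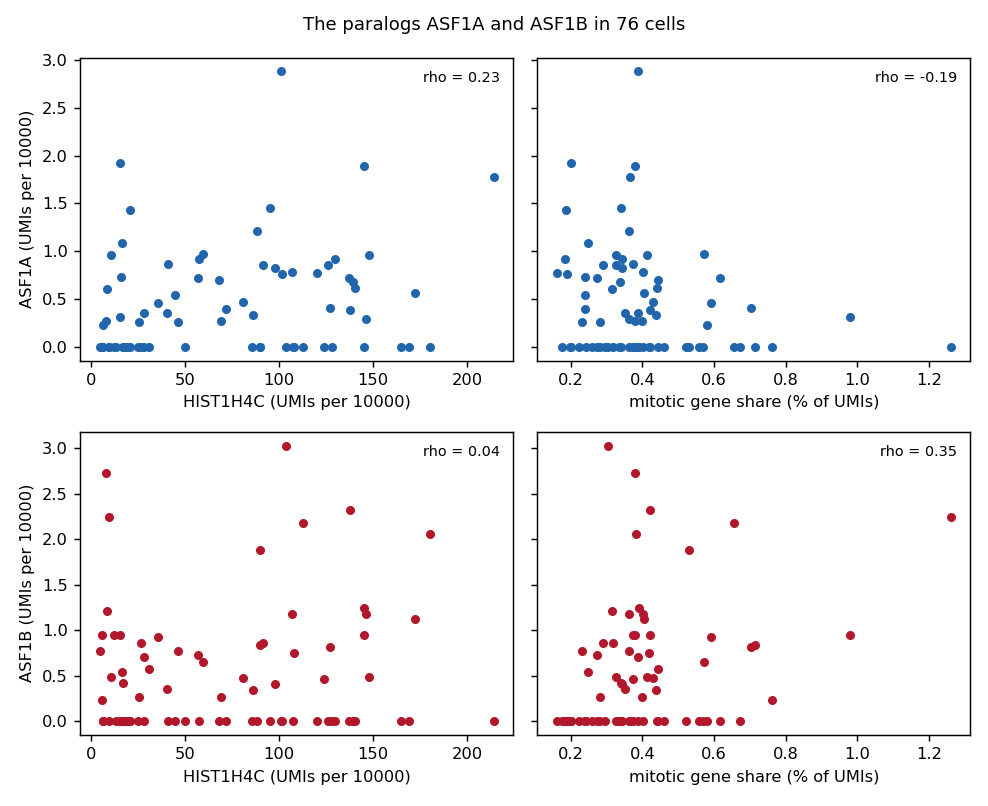
ASF1A (top, blue) and ASF1B (bottom, red) in UMIs per 10000 against HIST1H4C (left, UMIs per 10000) and the mitotic gene share (right, percent of UMIs), 1 point per cell, with rho in each panel. Against the mitotic share ASF1B has a rho of 0.35 and ASF1A of -0.19, and the rows of points at 0 are cells without a UMI.

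Between the members themselves, 6 of the 36 pairs (16.7%) reached a rho of 0.3, against 1.11% of all gene pairs and 5.71% of pairs among the replication genes. The median was 0.123, against 0.0212 over all pairs. Of the 36 pairs, 31 were above 0, against 6138673 of 10804276 pairs of all genes tested. SLBP and NASP had the highest rho, 0.40 (r 0.36), with both seen in 48 cells and neither in 4. NASP with CHAF1A and SLBP with CHAF1A followed at 0.32 each, then CHAF1A with DNMT1 at 0.31, and DNMT1 with HELLS and NASP with DNMT1 at 0.30 each. All 6 of these pairs lie among SLBP, NASP, CHAF1A, DNMT1 and HELLS. Among partners, CHAF1A and CHAF1B had a rho of 0.11 and UHRF1 and DNMT1 of 0.09. CHAF1A, CHAF1B and UHRF1 averaged 0.934, 0.711 and 0.434 UMI, so zeros were common. These values therefore cannot show whether partners vary together. The pairs of CHAF1A with NASP, SLBP and DNMT1 rest on the same sparse counts of CHAF1A and carry the same limit. The count of pairs moved with the settings, to 2 with thinned cells (0.819% of all gene pairs) and to 1 with the cell total (0.759%) or the ribosomal protein share (0.823%) held fixed.

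Neighbouring pathways were read through lists of genes set beside the summed share of the 9, with which 6.23% of all genes reached 0.3. Of 19 licensing genes tested, 7 did, among them the helicase subunits MCM3 (0.42), MCM6 (0.37) and MCM2 (0.37). Of 23 fork genes, 2 did, the sliding clamp PCNA (0.40) and its loader subunit RFC3 (0.35). None of 8 nucleotide supply genes and 1 of 28 mitotic genes, TOP2A (0.30), did. Among 13 other histone chaperones tested, 2 did, RBBP4 (0.40) and MCM2, which also binds H3 and H4. NPM1 (87.2 UMIs) and NAP1L1 (13.3 UMIs) were the most abundant of that list. Of 6 replication-independent chaperones and partners tested, 3 did, DEK (0.47), UBN1 (0.40) and ATRX (0.32). HIRA, the chaperone that deposits H3.3 with UBN1, was seen in 5 cells.

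Of 4 DNA methylation genes tested, 2 reached 0.3. CDCA7, the partner that activates HELLS, stood at 0.44 and TDG, a glycosylase of active demethylation, at 0.42. USP7 (0.06) and CDCA7L (-0.06) did not reach 0.3. The de novo methyltransferases were rare, with DNMT3A at 8 UMIs in 8 cells and DNMT3B at 6 UMIs in 4 cells, against 206 UMIs of DNMT1. UHRF2, the paralog of UHRF1, gave 23 UMIs in 17 cells. Of 6 heterochromatin genes tested, CBX3 (0.34) and EHMT1 (0.33) reached 0.3. None of 10 histone mRNA processing genes tested did, with the replication share, HIST1H4C or the sum of the 9. The most abundant of these was NCBP2, a cap-binding subunit, at 3.82 UMIs, while NPAT, the activator of histone genes, averaged 0.34.

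Among 2805 genes with a mean of at least 1 UMI, those most like the summed share of the 9 were USP1 (rho 0.58), U2SURP (0.56), HNRNPR (0.52), SON (0.51) and SRSF5 (0.51). USP1 removes ubiquitin from PCNA, and the other 4 take part in RNA splicing or packaging. USP1 was also among the 2 genes most like SLBP (0.48, after HSPA8 at 0.49) and DNMT1 (0.51, after PRRC2C at 0.52). For NASP they were KLHL23 (0.50) and POLR2B (0.49), and for ASF1B HSPA8 (0.47) and CSNK1E (0.46). For HELLS, YY1 stood at 0.54 and another gene is not reported here. These are the tops of a ranking of many genes over 76 cells of 1 run.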

How the data were processed

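The authors deposited raw UMI counts for each gene in 1 table with 76 columns, and these counts carry no normalization. Tools listed, without their roles, in the submitters' processing notes are STAR 2.4.0a and cutadapt 1.2.1, with hg19 (GRCh37) as the build. How UMIs were counted, and on which annotation, is not given in the sources used here. Polyadenylated RNA was primed with oligo-dT and amplified by 18 PCR cycles, per the labels' protocols, which give an N(4)H(4) tag while the column names carry another.

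A row that repeats column numbers (0.197% of the sum of values) was left out, which left 17513 gene rows and 80 spike-in rows. All columns matched a cell (0 unmatched), 0 pairs of cells were identical, and the highest correlation between cells was 0.873. Shares are UMIs over the cell total of 7305 to 43392. Dispersion and rho were computed for the 4649 genes averaging 0.5 UMI or more in Python 3.11.15 with numpy 2.4.6, pandas 2.3.3 and SciPy 1.17.1, and the code was tested on simulated data. A rho of at least 0.3 was used as the line for counts. Thinning drew 10940 UMIs per cell without replacement, in a single random draw, and left out 5 cells under 10483. The genes named are the 9 members and HIST1H4C, the 5 genes most like their sum and 2 per member with a mean of at least 1 UMI, and from each list its most abundant genes and those past 0.3; further genes were named after their values were seen. The members and lists were chosen with earlier results of these data known. Sequences come from RefSeq (GRCh38.p14) and GENCODE 29 (GRCh38); no coordinates of hg19 are given. The E2F, CCAAT and TTTGAA motifs and the A-rich end were looked for after values or sequences had been seen. The alternatives were other scales, thinning, fewer cells, other measures and partial correlations. One gene is not reported here.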

Additional observations from a re-analysis of the deposited data

How the results depend on the processing

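No paired analysis was possible because the labels give 1 group of cells. The count of members at a rho of 0.3 or more with HIST1H4C was 0 under all 9 alternatives tried. Of other genes, 0.345% (Pearson r of log2 values) to 2.89% (spike-in scale) did, so this count does not set the members apart. With spike-in UMIs as the scale the median rho of the 9 was -0.0077 with HIST1H4C (main -0.165), 0.497 with the replication share (main 0.262) and 0.314 with the mitotic share (main 0.0393). Other genes moved too, since 48.9% of them then reached 0.3 with the replication share and 38.1% with the mitotic share; 5 members did with the mitotic share (main 1) and 11 pairs of members did (main 6), against 9.83% of all gene pairs (main 1.11%). With the ribosomal protein share held fixed, 2 members reached 0.3 with the replication share (main 4), against 1.15% of other genes (main 2.98%). The median with the mitotic share was then -0.106, and 1 pair of members reached 0.3, against 0.823% of all gene pairs. With the cell total held fixed the mitotic count was 0 (1.26% of other genes) and the pairs numbered 1 (0.759% of all gene pairs). Without the 5 shallow cells the mitotic count was 0 (1.95%) and the pairs numbered 3 (1.255%). With thinned cells they were 0 (1.17%) and 2 (0.819%). A mitotic count of 0 is thus near the share of other genes. Of the dispersions, 1 member, HELLS, lay above every spike-in with thinned cells, against 4.65% of genes, and 3 did with a minimum mean of 1 UMI, against 21.6% (main 0, against 7.51%). The cause of these shifts was not tested. The summed share of the 9 kept a positive rho with the replication share under the 8 alternatives run for it, from 0.35 to 0.76. At this depth a cell with 0 UMIs of UHRF1, CHAF1A, CHAF1B, ASF1A or ASF1B cannot be told apart from a cell with a missed molecule.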
